A study of Mus musculus with 2 samples.

Results

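The distal peaks are STAT5 CUT&Tag peaks of mouse aortic valve interstitial cells that lay more than 50 kb from the nearer of their 2 deposited neighbouring genes. They were chosen from position alone: the peak was on a nuclear chromosome, the smaller of the deposited distances exceeded 50000 bp, and that nearer gene had a proper name, not a numbered Gm or Rik gene model. The rule kept 369 of the 2054 deposited peaks, 203 of 1217 from the Tert wild type and 166 of 837 from the knockout. Another 86 wild-type and 77 knockout peaks lay as far out but had a Gm or Rik model as their nearer gene, and they were not counted as distal peaks here.

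The study asked where STAT5 sits on the genome of valve cells driven towards bone-like differentiation with and without telomerase reverse transcriptase (Tert). Valve interstitial cells are fibroblast-like cells that maintain the matrix of the leaflets, grown here as primary mouse lines. One library was made from Tert+/+ cells and 1 from Tert-/- cells, both after 7 days in osteogenic medium, whose additives were ascorbic acid 2-phosphate (50 µM), dexamethasone (100 nM) and glycerol phosphate (10 mM). Both groups had the medium, so neither is an untreated control. The labels do not say how many animals stand behind a line or whether the lines come from littermates. With 1 library per genotype no difference between genotypes could be tested, and genotype, cell line, library depth and library quality cannot be told apart. A peak list holds no expression values, so neither the cell type nor the loss of Tert was checked from it.

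STAT5 is a transcription factor that cytokine receptors activate through JAK kinases, after which it forms dimers, enters the nucleus and binds DNA. CUT&Tag finds bound sites by tethering a transposase to an antibody on chromatin, so that DNA is cut and tagged beside the bound protein. Gene deserts are long stretches without protein-coding genes. They often border genes for developmental transcription factors, cell adhesion molecules and neuronal receptors, and some hold enhancers that act on a gene across a long distance.

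The name gene desert fitted the distal peaks in part. Against protein-coding genes of a RefSeq table of the same build (GRCm38.p6), 194 of 203 wild-type and 160 of 166 knockout distal peaks lay more than 50 kb from any coding gene. Against RefSeq genes of every kind, 123 wild-type peaks (60.6%) and 94 knockout peaks (56.6%) had a gene within 50 kb. A RefSeq gene contained 33 of the wild-type peaks, of which 24 were in a long noncoding RNA gene. In the knockout list 25 were contained and 20 of them were in a long noncoding RNA gene. A coding gene contained 5 wild-type peaks (in Dock1, Arhgap24, Lsamp, Nrg1 and Dcdc5) and 4 knockout peaks (in Dgkb, Ptprr, Macrod2 and Zbtb20). Of these genes Arhgap24 was itself a deposited neighbour, and the deposited neighbours of the other peaks were other genes. The distal peaks are therefore peaks far from coding genes, often with a noncoding gene nearby. Only 80 wild-type and 72 knockout peaks were more than 50 kb from every RefSeq gene. No distal peak overlapped any of the promoter windows of the RefSeq promoter table. The rule kept only peaks more than 50 kb from their deposited genes, so a low count was largely fixed in advance.

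Of 1181 wild-type nuclear peaks 17.2% were distal (95% interval 15.1 to 19.5), and of 817 knockout nuclear peaks 20.3% were (17.6 to 23.2). These intervals overlapped. Intervals of shares are exact (Clopper-Pearson) here, and all intervals cover counting error alone. In 2703 Mb of sequence between the first and last RefSeq genes of the chromosomes, 1017 Mb (37.6%) lay more than 50 kb from a coding gene. By that measure, whatever the deposited neighbour's name, 24.7% of wild-type nuclear peaks (22.3 to 27.3) and 30.7% of knockout nuclear peaks (27.6 to 34.0) were in such sequence. Both shares were below the share of the sequence, and sequence to which short reads cannot be assigned was not subtracted. The knockout interval lay just above the wild-type interval on this measure, with 1 library behind each.

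The 3 highest-scoring distal peaks of the wild-type library were among the strongest of its nuclear peaks. Peaks carry the authors' peak shape score, a measure of how well the signal resembles a peak, and a p-value that follows from the score through the standard normal curve and is not adjusted for multiple testing. The 2 highest scores among all 1181 wild-type nuclear peaks were both distal. They lay side by side on chromosome 17, at 4626289 to 4626390 with a score of 29.6 (deposited p-value 3.90e-193) and at 4626399 to 4626502 with a score of 27.4 (deposited p-value 1.32e-165). Just 8 bp separated them, so they are close to 1 position counted as a pair. Their gap of 1.30 Mb runs from Nox3, an NADPH oxidase of the inner ear, to Arid1b, a subunit of the SWI/SNF chromatin remodelling complex. Arid1b was nearer, at 368 kb, and RefSeq places both peaks inside the long noncoding RNA gene Gm34259. No knockout distal peak lay in the Nox3 to Arid1b gap.

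The third, at chromosome 6, 10186381 to 10186460, scored 15.4 (deposited p-value 9.96e-54) and ranked seventh among wild-type nuclear peaks. It lay 937 kb from Nxph1, which encodes neurexophilin 1, a secreted ligand of neurexins. A further wild-type peak in that gap, at 9889937 to 9890026, scored 5.96 and lay 641 kb from Nxph1. The knockout library had 3 peaks in the same gap, with scores of 0.946, 0.929 and 0.847, and these were on the far side of both wild-type peaks, 1651 to 2280 kb from Nxph1.

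After these the wild-type scores fell quickly. A peak on chromosome 14 scored 10.7, between Nrg3, a neuregulin ligand of ERBB4, and Sh2d4b, at 129 kb from the latter. On the X chromosome a peak between Nap1l3 and Cldn34c1 scored 10.6. The next had scores of 8.30 at 1141 kb from Galc, a lysosomal galactosylceramidase, and 8.23 between Trim52 and Slitrk1, a synaptic membrane protein. A score of 7.74 belonged to a peak 125 kb from Pou4f1, a transcription factor of sensory neurons. The ninth peak scored 6.81 and lay 74.4 kb from St6galnac3, a sialyltransferase, and the tenth was the second Nxph1 peak.

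Scores in the knockout list were lower among nuclear peaks, with 3.34 the highest of its 817. Its 3 highest-scoring distal peaks ranked 7, 11 and 17 among these. The highest, on chromosome 18 at 18323911 to 18324228, scored 2.17 (deposited p-value 0.0151). It lay 1515 kb from Cdh2, which encodes N-cadherin, in a gap of 3.15 Mb that ends at Dsc3, a desmosomal cadherin. Next came a peak 103 kb from Ebf2, a transcription factor of mesenchymal and brown fat lineages, with a score of 1.95 (deposited p-value 0.0257). A peak 726 kb from Kcnj3, an inwardly rectifying potassium channel, scored 1.86 (deposited p-value 0.0314), and its other neighbour was the orphan nuclear receptor gene Nr4a2. No other knockout distal peak had a deposited p-value under 0.05. The other 7 of the 10 highest scored 1.46 to 1.60 and had as nearer genes Tlr4, the receptor for bacterial lipopolysaccharide, Arpp21, Mef2c, a transcription factor of heart and muscle, Ins1, one of the mouse insulin genes, Etl4, Frk and Xylt1, which starts glycosaminoglycan chains.

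Most distal peaks of either list sat in a narrow band of low scores. Wild-type scores ran from 0.850 to 29.6 with a median of 1.12 and quartiles of 1.06 and 1.78, beside a median of 1.18 over all wild-type nuclear peaks. Knockout scores ran from 0.847 to 2.17 with a median of 0.967 and quartiles of 0.941 and 1.03, beside a median of 0.977 over all knockout nuclear peaks. A deposited p-value under 0.05 was held by 59 wild-type distal peaks (29.1%, 22.9 to 35.8), where 31.2% of all nuclear peaks had one. In the knockout list 3 distal peaks passed (1.81%, 0.374 to 5.19), beside 3.18% of all nuclear peaks. Under 0.01 the numbers were 33 wild-type distal peaks (16.3%, beside 17.3%) and 0 knockout distal peaks, beside 0.612%, or 5 of all nuclear peaks. The distal shares were thus near those of their own list in both libraries. Weak peaks were common, with deposited p-values of up to 0.198 in both lists, and whether scores of the 2 lists share a scale is not given in the sources used here.

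Width separated the distal peaks of the libraries. Wild-type distal peaks measured 84.8 ± 5.28 bp (mean ± SD over peaks, range 80 to 117) and knockout distal peaks 240 ± 44.5 bp (147 to 365), so the narrowest knockout distal peak was wider than the widest wild-type distal peak. All nuclear peaks had means within 2 bp of these, 84.8 and 239 bp, but their ranges overlapped, at 51 to 120 bp in the wild type and 78 to 386 bp in the knockout. Mean width thus moved with library, and its part in the scores was not tested.

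Among the strongest nuclear peaks of a list the distal share could not be told from that of all its nuclear peaks. Of the 10 highest-scoring wild-type nuclear peaks 3 were distal (exact interval 6.67% to 65.2%), of the top 50 there were 10 (10.0% to 33.7%), and of the top 200 there were 33 (16.5%, 11.6 to 22.4). In the knockout list the numbers were 1 of the top 10 (0.253% to 44.5%), 7 of the top 50 (5.82% to 26.7%) and 36 of the top 200 (18.0%, 12.9 to 24.0). All 6 intervals contained the distal share of all nuclear peaks of their list.

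**Figure D1:**
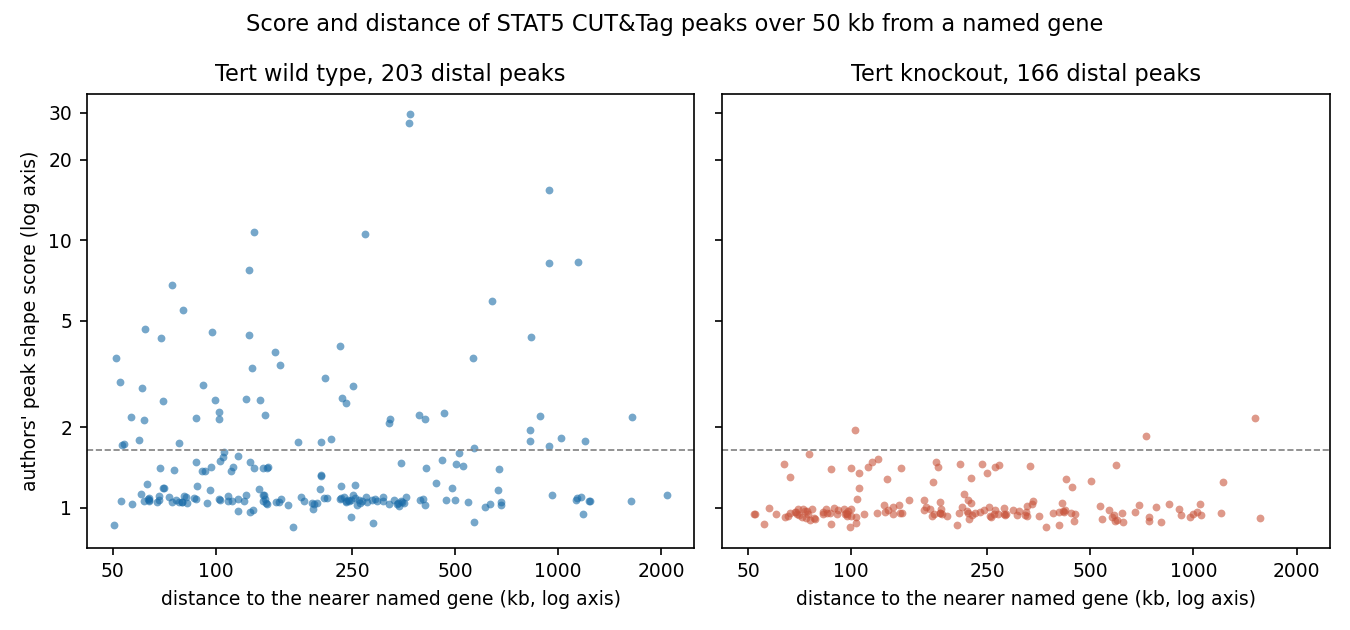
Each point is a distal peak, with its distance to the nearer named gene (kb, log axis) and the authors' peak shape score (log axis); the dashed line marks the score at which the deposited p-value is 0.05. The wild-type panel has 59 peaks above the line, up to 29.6, spread over all distances, and the knockout panel has 3, up to 2.17.

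The distance to the nearer gene had almost the same spread in both lists. Its median was 191 kb for wild-type peaks (quartiles 97.1 and 349) and 197 kb for knockout peaks (98.3 and 384). The longest were 2077 kb and 1560 kb. Score did not climb or fall steadily with distance. In the wild type a deposited p-value under 0.05 was held by 18 of 53 peaks at 50 to 100 kb (34.0%), 18 of 73 at 100 to 250 kb (24.7%), 9 of 42 at 250 to 500 kb (21.4%), 10 of 23 at 500 to 1000 kb (43.5%) and 4 of 12 beyond 1000 kb (33.3%). The exact intervals of these 5 shares overlapped one another. Peaks next to the boundary scored 0.861 to 3.62 in the wild type and 0.952 to 0.976 in the knockout, for a boundary of 50 kb. Just inside it were wild-type peaks near Adcyap1r1 (50498 bp, score 0.861) and Azin1 (50952 bp, 3.62), and just outside were peaks near Septin5 (49664 bp, 1.05) and Tmem200a (48513 bp, 1.13). For the knockout the peaks just inside were near Pou4f3 (52174 bp, 0.952) and Tfap2d (52383 bp, 0.953), and those just outside near Shb (49583 bp, 0.976) and Uqcrfs1 (49191 bp, 0.968).

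The most remote peaks lay over 1000 kb from the nearer gene in both libraries. The wild-type peak farthest from a gene was 2077 kb from Pcdh17, a protocadherin, in the 4.42 Mb gap between Olfm4 and Pcdh17, and scored 1.12. A peak between Dsel and Cntnap5a, a neurexin-like contactin-associated protein, was 1643 kb from Cntnap5a and scored 2.18. Next were peaks 1634 kb from Celf4, an RNA-binding protein gene facing Pik3c3 (score 1.06), 1239 kb from Apob, the main protein of low-density lipoprotein (1.06), and 1227 kb from Manea, facing Epha7 (1.07). Of these 5, 1 had a deposited p-value under 0.05, the peak near Cntnap5a.

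In the knockout the farthest peak was 1560 kb from Mat2b, facing Tenm2, a teneurin adhesion protein (score 0.920). The Cdh2 to Dsc3 gap held both the second, which is the highest-scoring knockout peak named above, and the fourth, 1200 kb from Dsc3 (0.959). A peak 1220 kb from Dnajb9, a chaperone of the endoplasmic reticulum, scored 1.25. One at 1050 kb from Acvr2a, an activin receptor, scored 0.941.

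Gaps around distal peaks had a longer median than gaps of over 100 kb between coding genes. The gap between the flanking genes had a median of 0.713 Mb for wild-type peaks (95% interval of the median 0.595 to 0.880, range 0.131 to 4.52, 200 peaks) and 0.813 Mb for knockout peaks (0.633 to 0.865, range 0.114 to 3.82, 166 peaks). For comparison, the 2967 RefSeq gaps of over 100 kb between coding genes had a median of 0.233 Mb. Since a peak must be over 50 kb from its nearer gene, short gaps could hold none, and longer gaps have more room for a peak. The comparison of medians therefore cannot show a preference for long gaps. In gaps of over 1 Mb lay 77 of the wild-type peaks (38.5%) and 61 of those from the knockout (36.7%), and in gaps of over 3 Mb lay 10 and 12. The longest with a wild-type peak were Celf4 to Pik3c3 (4.52 Mb), Olfm4 to Pcdh17 (4.42 Mb), Dsel to Cntnap5a (3.82 Mb), Zeb2 to Acvr2a (3.70 Mb) and Nudt12 to Efna5 (3.59 Mb). The knockout list had the last 3 of these too, with Igfbp7 to Adgrl3 (3.61 Mb) and Gm45297 to Cdh11 (3.58 Mb). Igfbp7 encodes a secreted binder of insulin-like growth factors and Cdh11 the cadherin of osteoblasts and other mesenchymal cells.

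**Figure D2:**
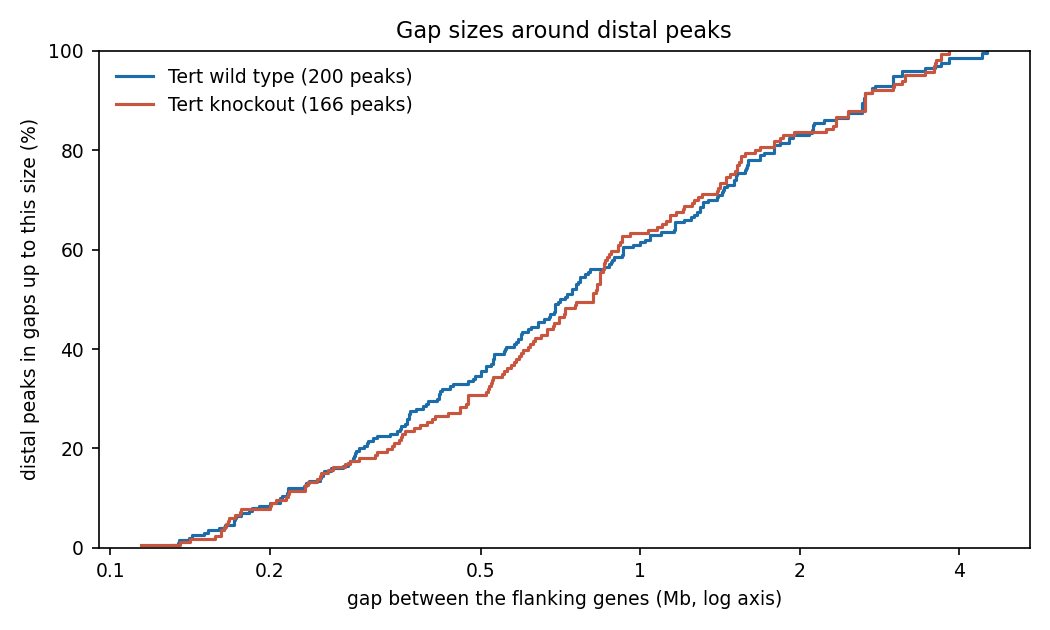
Cumulative share of distal peaks (%) against the size of the gap between the flanking genes (Mb, log axis), for 200 wild-type and 166 knockout peaks with a gene on both sides. The lines run close together, with medians of 0.713 and 0.813 Mb.

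Distal peaks were spread within their gaps. The nearer gene lay at a median of 32.5% of the gap's length for wild-type peaks and 32.6% for knockout peaks. It was on the lower coordinate side of 88 wild-type peaks and the higher side of 115, and of 75 and 91 knockout peaks. Where the strand of the nearer gene was known, the peak was upstream of it in 98 of 167 wild-type cases (58.7%, 50.8 to 66.2) and 63 of 120 knockout cases (52.5%, 43.2 to 61.7). The wild-type interval lay just above 50% and the knockout interval contained it. The wild-type count takes as independent the 2 adjacent peaks nearest Arid1b and 3 peaks with starts within 2.33 kb nearest Tyrp1, all upstream. The difference from 50% can therefore not be relied on. Peaks 1 to 50000 bp from a named gene were upstream in 62.0% (55.2 to 68.4) and 56.9% (48.2 to 65.4), which the intervals do not separate from the distal peaks. A gene on 1 side only was deposited for 3 wild-type peaks, 2 past Asmt on the X chromosome (scores 5.49 and 1.33) and 1 past Ptchd3 on chromosome 11 (2.23), and for 0 knockout peaks.

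Few gaps held more than 1 peak of the same library. The 203 wild-type peaks fell beside 176 distinct gene pairs (a gene with no neighbour counted as a pair) and the 166 knockout peaks beside 143. Of these, 24 wild-type and 20 knockout pairs held 2 or more, with 51 and 43 peaks between them. The most, 4 wild-type peaks, lay between Epha7, an ephrin receptor, and Map3k7, the kinase TAK1 of TGF-beta and cytokine signalling, spread over 2258 kb with scores of 2.46, 2.20, 1.01 and 0.982. The gap between Ankrd7 and Kcnd2, a potassium channel, held 3 knockout peaks (0.891 to 1.01) and 1 wild-type peak (1.07). Between Gm47374 and Dnajb9 there were 3 knockout peaks (0.940 to 1.25).

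Tight groups of peaks occurred in the wild-type list. Ptprd, a receptor tyrosine phosphatase, and Tyrp1, an enzyme of melanin synthesis, flanked 3 wild-type peaks on chromosome 4. They ran from 80002445 to 80004864, with starts within 2.33 kb and scores of 4.34, 1.77 and 1.95. All 3 had deposited p-values under 0.05, and the nearest RefSeq gene of any kind was 504474 bp or more away. In the gap from Plod2, a lysyl hydroxylase of collagen cross-linking, to Dipk2a, peaks at 3.64 and 1.67 had starts within 2.95 kb. Along the chromosomes, wild-type distal peaks that follow each other were at most 5000 bp apart in 4 cases, including the Nox3 to Arid1b pair. This occurred in 0 cases in the knockout, where the closest distal peaks were 22760 bp apart.

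No distal peak overlapped a peak of the other library by 1 bp or more. This was 0 of 203 wild-type and 0 of 166 knockout peaks. With an upper limit of 3 counts, this allows shares of up to 1.48% and 1.81%. Such an overlap was held by 0.931% of all wild-type nuclear peaks and 1.1% of all knockout nuclear peaks. At these numbers a share like that of all nuclear peaks could not have been told from 0. Within 10 kb there were 2 peaks of each list, and within 100 kb 11 wild-type and 13 knockout peaks. From a distal peak to any peak of the other library the median distance was 1228 kb when measured from wild-type peaks and 1092 kb when measured from knockout peaks. Counts within 10 and 100 kb and these medians are not given here for all nuclear peaks. They can therefore not be read as a trait of distal peaks.

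Some gaps nevertheless held a distal peak of both libraries. This was so for 27 gene pairs, 15.3% of the wild-type pairs and 18.9% of the knockout pairs, with 35 peaks of each library. The shared gaps were long, with a median of 1.57 Mb, where gaps with wild-type peaks alone had 0.559 Mb and those with knockout peaks alone 0.593 Mb. Of gaps up to 0.5 Mb, 2 were shared, out of 67 with a wild-type and 49 with a knockout peak. Between 0.5 and 1 Mb, 9 were shared, out of 46 and 47, and between 1 and 2 Mb 6 were, out of 38 and 29. Of gaps over 2 Mb, 10 were shared, which is 43.5% of the 23 with a wild-type peak and 55.6% of the 18 with a knockout peak. Sharing was rarest in the shortest gaps and most frequent in the longest, and the part of gap length in it was not tested. Pairs around other intergenic peaks, with shorter median gaps of 0.0912 and 0.124 Mb, were shared in 25 cases, which is 6.22% of such wild-type pairs and 8.25% of such knockout pairs.

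In a shared gap the peaks of the libraries were usually far apart. The closest wild-type and knockout peaks had a median spacing of 213 kb, from 7.53 to 1741 kb, and were under 100 kb apart in 10 of the 27 gaps. A wild-type peak with a deposited p-value under 0.05 was present in 7 of the gaps and such a knockout peak in 0.

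Among the shared gaps with the most peaks, besides those of Epha7, Nxph1 and Kcnd2 above, was Zeb2 to Acvr2a on chromosome 2. Zeb2 is a transcription factor of the epithelial to mesenchymal transition. Its gap held a wild-type peak at 47676119 to 47676201 (score 1.09) and knockout peaks at 47764197 to 47764434 (0.941) and 45369605 to 45369841 (1.01), the first of them 88.0 kb from the wild-type peak. The Dsel to Cntnap5a gap held wild-type peaks of 2.18 and 1.83 and a knockout peak of 0.882, at closest 213 kb apart. Between Gm48532 and Apob the closest spacing was 222 kb. Between Marcks, a substrate of protein kinase C, and Rfpl4b it was 666 kb, with wild-type scores of 4.43 and 1.03 and a knockout score of 1.43.

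The Myc to Gsdmc gap of 1.79 Mb on chromosome 15 borders the proto-oncogene Myc, counted here among the STAT5 target genes. Its wild-type peak at 62193482 to 62193561 lay 203 kb from Myc, inside the long noncoding RNA gene Pvt1, and scored 1.76 (deposited p-value 0.0388). Its knockout peaks scored 0.953 at 440 kb from Myc and 0.928 near the Gsdmc end. The wild-type peak and the nearer knockout peak were 237 kb apart.

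Just 2 shared gaps, singled out here after their values were seen, had peaks of both libraries within 10 kb. One is the gap before Ank (the mouse gene also called Ankh), a membrane protein that controls pyrophosphate outside the cell and holds back mineral deposition. There the wild-type peak at chromosome 15, 27369803 to 27369890, lay 96.8 kb from Ank with a score of 1.42 (deposited p-value 0.0774). Knockout peaks lay at 27377416 to 27377630, 7.53 kb away from it, with a score of 1.00 (deposited p-value 0.158), and at 27400391 to 27400581, 66.1 kb from Ank, with a score of 1.30 (deposited p-value 0.0966). None of the 3 passed a deposited p-value of 0.05. The other gap is Tlr4 to Brinp1, with peaks 9.61 kb apart, a wild-type score of 1.03 and a knockout score of 0.888.

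**Figure D3:**
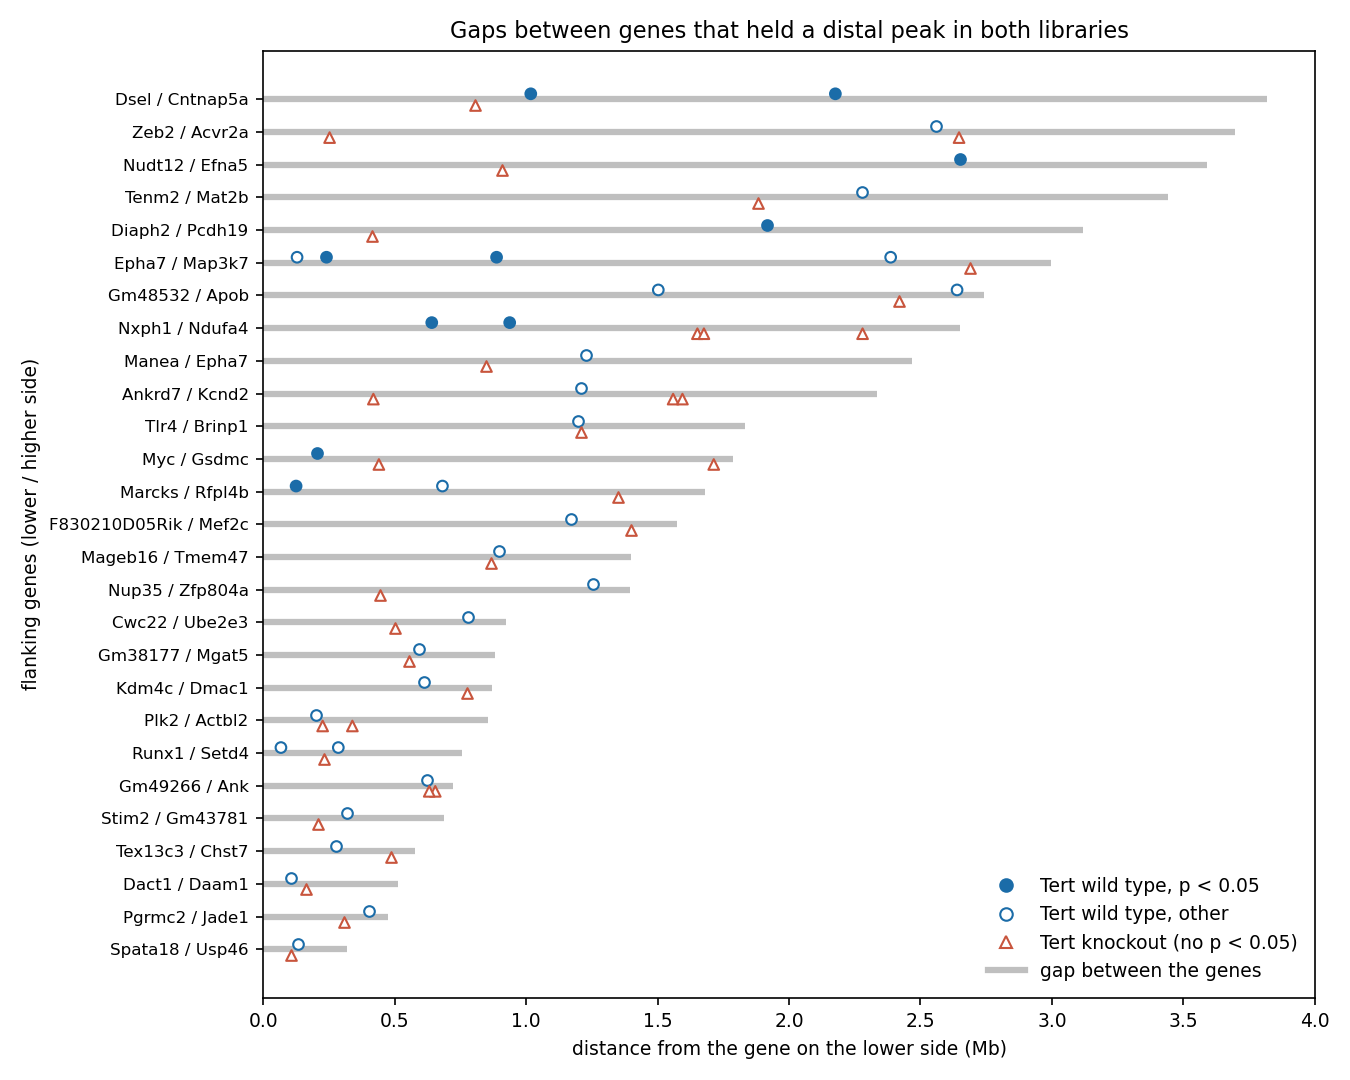
The 27 gaps with a distal peak in both libraries, each drawn to scale (Mb from the gene on the lower coordinate side), with wild-type peaks as circles (filled where the deposited p-value is under 0.05) and knockout peaks as triangles. Circles and triangles lie apart along most gaps, at a median of 213 kb for the closest of each gap.

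Flanking genes were sorted into 10 lists by role. The lists give the genes on either side of a distal peak, which are neighbours and not shown to be targets. Because a long gap holds more sequence far from genes than a short one, each list is set beside the share of that sequence it borders. A neighbour is defined in 2 ways. Named genes and counts of genes rest on the deposited neighbours. Shares of peaks rest, as does the share of sequence, on the nearest RefSeq coding genes, and are out of the 191 wild-type and 160 knockout distal peaks that lay over 50 kb inside a gap between such genes. A share can therefore include peaks that have no listed gene as a deposited neighbour. Over all coding genes, 288 of 21900 (1.32%) flanked a wild-type and 245 (1.12%) a knockout distal peak, and 50 flanked both, 17.4% and 20.4% of each.

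Genes of neuronal adhesion and axon guidance bordered more distal peaks than any other of the 10 lists. Of 67 listed, 11 flanked a wild-type and 13 a knockout distal peak, and Cntnap5a, Efna5, Epha7, Nxph1 and Tenm2 flanked both. By deposited neighbours these were 19 wild-type and 17 knockout peaks. By RefSeq neighbours the list bordered 25 wild-type peaks (13.1%, 8.65 to 18.7) and 21 knockout peaks (13.1%, 8.31 to 19.4), where it borders 11.4% of the far sequence. Their highest wild-type scores were beside Nxph1 (15.4), Slitrk1 (8.23), Epha7 (2.46), Cntnap5a (2.18), Efna5 (1.70) and Nrxn3 (1.42). In the knockout the highest were beside Csmd3 (1.42), Ncam2 (1.26), Epha7 (1.04) and Adgrl3 (1.03). Both intervals contained the share of the sequence.

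Cadherins and protocadherins, 31 genes, flanked 5 wild-type and 8 knockout peaks by deposited neighbours. In the wild type these were Pcdh17, with 4 peaks of up to 2.23, and Pcdh19, with 1 of 1.78. In the knockout they were Cdh2, with 4 peaks of up to 2.17, Pcdh19 (1.05), Cdh11, with 2 peaks of up to 0.980, and the neighbours Cdh4 and Cdh26, which share 1 peak (0.983). By RefSeq neighbours the list bordered 7 wild-type peaks (3.66%, 1.49 to 7.41) and 11 knockout peaks (6.88%, 3.48 to 12.0), beside 6.33% of the far sequence. Ion channels and neurotransmitter receptors, 63 genes, had 5 members in the wild type, led by the potassium channel gene Kcnh8 (1.77) and the glutamate receptor gene Gria1 (1.40), and 2 in the knockout, Kcnj3 (1.86) and Kcnd2 (1.01). By RefSeq neighbours they bordered 6 wild-type peaks (3.14%, 1.16 to 6.71) and 5 knockout peaks (3.13%, 1.02 to 7.14), beside 4.09% of the sequence.

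Developmental transcription factors numbered 105, of which 13 flanked a wild-type and 10 a knockout distal peak, and Mef2c, Myc and Zeb2 flanked both. The wild-type peak of highest score in this list was that of Pou4f1 (7.74), followed by Myc (1.76), Sox1 (1.72) and Isl1 (1.62), a factor of cardiac progenitors. Knockout peaks were led by Ebf2 (1.95), Nr4a2 (1.86), Mef2c (1.49) and Sox9 (1.07). RefSeq neighbours put 16 wild-type peaks (8.38%, 4.86 to 13.2) and 15 knockout peaks (9.38%, 5.34 to 15.0) beside the list, which borders 7.46% of the sequence.

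Genes of calcification and of the valve matrix bordered few peaks and little of the far sequence. Among 34 osteogenic and mineral metabolism genes, Ank flanked peaks in both libraries, and Sox9, the master factor of cartilage (peaks at 219 kb with 1.07 and 87.6 kb with 0.874), and Ostn, which encodes osteocrin (0.953), flanked knockout peaks. This was 1 of 191 wild-type peaks (0.524%, 0.0133 to 2.88) and 5 of 160 knockout peaks (3.13%, 1.02 to 7.14), with 0.560% of the sequence. The knockout peaks came from 3 genes, 2 of them with a pair of peaks each, and had deposited p-values above 0.05. Their interval lay above the share of the sequence and the wild-type interval contained it. The knockout interval takes the paired peaks as independent. No other list had an interval, in either library, that excluded its share of the sequence. The lists were also chosen with earlier results of these data known. The difference of the knockout share from that of the sequence can therefore not be relied on. Of 30 matrix genes, Col3a1 (1.22) and Col6a3 (1.40), both collagens, flanked a wild-type peak, and Dcn (decorin, 0.907) and Tnc (tenascin C, 0.946) a knockout peak. By RefSeq neighbours the matrix list bordered 3 wild-type peaks (1.57%, 0.325 to 4.52) and 1 knockout peak (0.625%, 0.0158 to 3.43), beside 0.526% of the sequence, which both intervals contained.

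BMP, TGF-beta and Wnt signalling contributed 6 of 70 genes. Of ligands, Inhba, which encodes a subunit of activin, lay 91.9 kb from a wild-type peak with a score of 2.88, the highest of the list. Of receptors, Tgfbr2 had a wild-type peak at 79.6 kb (1.06), and Acvr2a had peaks in both libraries in the long Zeb2 gap. Extracellular modulators were Bmper (1.02) and the Wnt inhibitor Dkk1 (1.12), both in the wild type. The Wnt effector Tcf7l2 had a knockout peak at 128 kb (0.979). These were 5 wild-type and 3 knockout peaks. By RefSeq neighbours the list bordered 5 wild-type peaks (2.62%) and 5 knockout peaks (3.13%), beside 1.58% of the sequence, and the exact intervals of both shares contained it.

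From the JAK-STAT pathway and known STAT5 targets, 50 genes, Myc alone flanked distal peaks, in both libraries. Of the 50, 18 border a RefSeq gap of over 100 kb, and the list bordered 1 wild-type peak (0.524%) and 2 knockout peaks (1.25%), beside 0.659% of the sequence. Of 18 telomerase and telomere genes 0 flanked a distal peak in either library. Just 2 of them border such a gap, and they border 0.18% of the sequence, so few peaks could have been beside them. Olfactory, vomeronasal and taste receptor genes, 1500 in number and clustered in the genome, were a comparison list, with 2 members beside wild-type peaks and 1 beside a knockout peak. The list bordered 1.57% of wild-type and 0.625% of knockout peaks, beside 1.03% of the sequence.

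**Figure D4:**
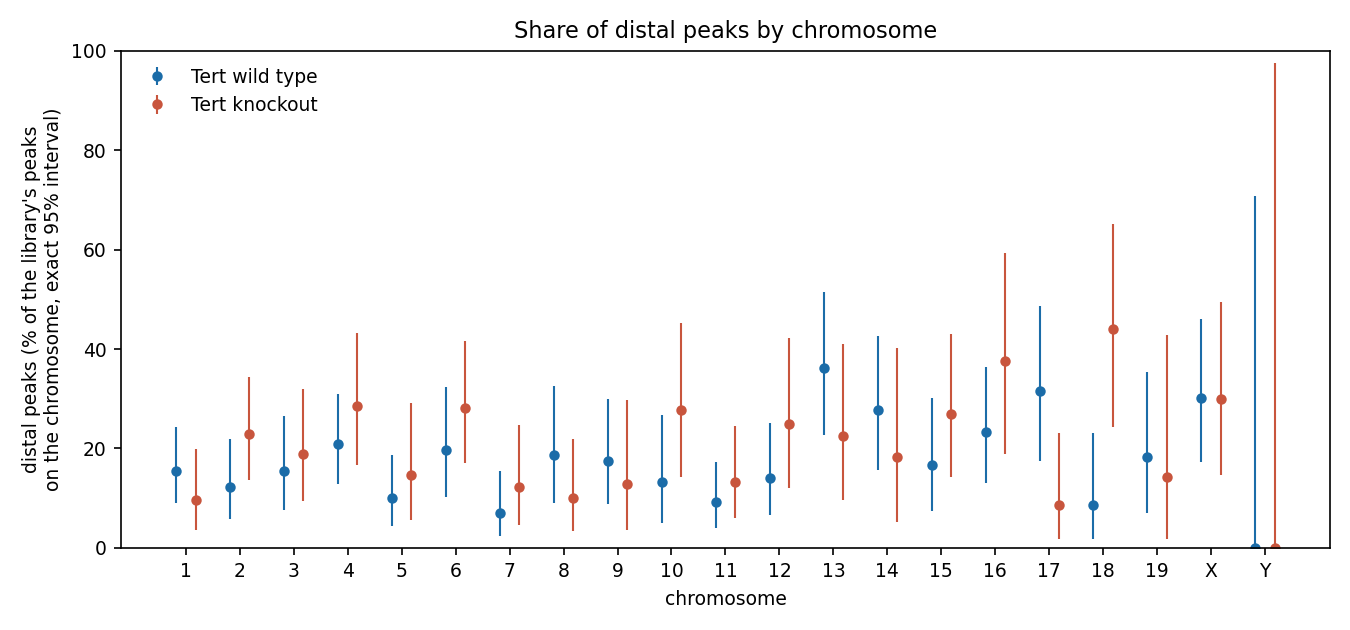
Share of each library's peaks on a chromosome that were distal (%, point) with its exact 95% interval (line), by chromosome. The intervals of the libraries overlap on every chromosome but 18, where the wild-type share is 8.57% and the knockout share 44.0%; chromosome Y had no distal peak and few peaks at all.

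Distal peaks were found on 20 of 21 nuclear chromosomes in each library, with none on Y. Wild-type peaks were most numerous on chromosomes 4 (18), 13 (17) and 1 (15) and fewest on 18 (3). Knockout peaks were most numerous on 2 and 6 (16 each) and 4 (14) and fewest on 19 (2). Per 100 Mb of sequence far from coding genes the wild type had 8.27 to 43.1 on chromosomes other than Y (median 19.1) and the knockout 7.77 to 32.4 (median 15.7). These rates count the 203 and 166 distal peaks alone, which leave out peaks whose nearer gene is a Gm or Rik model. In that sequence, Y included, lay 292 wild-type and 251 knockout nuclear peaks, so the rates understate its peak density. Chromosome 18 stood apart, and it was singled out after its values were seen. There 3 of 35 wild-type peaks were distal (8.57%, 1.80 to 23.1) and 11 of 25 knockout peaks (44.0%, 24.4 to 65.1), the 1 chromosome of 21 whose intervals did not overlap. The 3 wild-type peaks scored 1.06 to 1.11. Of the 11 knockout peaks, 4 flanked Cdh2, in the gaps on both of its sides, and 1 of these, at 2.17, was the highest-scoring knockout distal peak. The others scored 0.901 to 1.35, beside genes that include Dcc, a netrin receptor, Galr1, a galanin receptor, and Pou4f3. The knockout interval takes as independent the 4 peaks beside Cdh2, 2 in each of its gaps. Per 100 Mb of far sequence, chromosome 18 had 8.27 wild-type distal peaks, the lowest value besides Y. It had 30.3 knockout distal peaks, below chromosomes 6 (32.4) and 2 (30.9). The difference between the libraries on chromosome 18 can therefore not be relied on. On chromosome 17 the order was the other way round, with 12 of 38 wild-type peaks (31.6%, 17.5 to 48.7) and 3 of 35 knockout peaks (8.57%, 1.80 to 23.1), and these intervals overlapped.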

How the data were processed

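STAT5 CUT&Tag libraries of 1 Tert+/+ and 1 Tert-/- primary valve cell line were indexed over 14 PCR cycles after tagmentation with a commercial kit, as the labels' protocols state. The authors deposited 1 peak list per library. Positions are those of mm10, per the submitters' processing notes. Aligner, peak caller, annotation release, control library, duplicate handling and read depth are not given in the sources used here. Each peak has the authors' peak shape score and the authors' p-value, per the file headers, and the p-value equalled the normal upper tail at the score to within 5e-07 in every peak. Widths and distances to the neighbouring gene on each side were deposited in bp. Without read counts, depth and its effect on the number, width and score of peaks are unknown.

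Distal peaks were selected by the deposited distances and gene names. A gap is the sum of both distances and the peak width. Names matched RefSeq genes of GRCm38.p6, which is mm10, for 86.8% of wild-type and 89.5% of knockout neighbours, and 96.9% and 97.0% of matched genes lay within 5000 bp of the deposited distance. Shares carry exact (Clopper-Pearson) 95% intervals and median gaps carry order-statistic 95% intervals. For the count of 0 overlaps the upper limit was 3 counts. Intervals came from scipy 1.17.1, tables from pandas 2.3.3 and numpy 2.4.6 and figures from matplotlib 3.10.9, under Python 3.11.15. The selection rule, the distance to the nearest gene, overlaps and the merging of peaks were tested on simulated data. No test was made between genotypes.

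The peaks, the 10 gene lists and the rule for named genes were chosen with earlier results of these data known. Named were the flanking genes of the 10 highest-scoring peaks, the 5 most remote peaks and the 5 longest gaps per library, gaps with 3 or more peaks of 1 library, the 8 shared gaps with most peaks (longest first among ties), peaks at the threshold or with 1 neighbour, and up to 6 members per list. Alternatives were other distance limits, any nearer gene name, a p-value limit, merged peaks, RefSeq distances and wider matching. Peak sequences were not analysed here.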

Additional observations from a re-analysis of the deposited data

How the results depend on the processing

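Of 49 alternatives computed, 29 were classed as leaving a result the same and 20 as moving it. A result classed as the same could still change. Wild-type distal peaks went from 203 to 278 over 25 kb and to 289 with any nearer gene name. Counts change by construction where fewer or more peaks are kept, but shares and median gaps under a p-value limit need not. The results classed as moved follow. In the order wild type, knockout, the number of distal peaks became 98 and 83 beyond 200 kb, 59 and 3 with a deposited p-value under 0.05, and 80 and 72 when also over 50 kb from every RefSeq gene, an alternative chosen after seeing the data. Their share of nuclear peaks became 12.7% and 14.8% beyond 100 kb, 24.5% and 29.7% with a nearer gene of any name, 23.0% and 28.5% by distance to RefSeq coding genes with Gm and Rik models left out as nearer gene (24.7% and 30.7% with them), and 11.5% in the knockout with a p-value under 0.05, where the wild type had 16.0%. Peaks with a low p-value numbered 33 and 0 under 0.01, and 6 in the knockout with any nearer gene name. The knockout median gap became 1.51 Mb over its 3 peaks with a p-value under 0.05. Matching within 10 kb gave 2 peaks near the other library. Shared gene pairs became 0 with a p-value under 0.05 in both and 42 with any nearer gene name. The knockout share was above the wild-type share in each of these but that under a p-value of 0.05. No paired analysis was possible because there is 1 library per genotype. The same lack left no replicate to leave out, and the depth of neither library is known.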
